A study of Mus musculus with 8 samples.

Results

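Transcripts were compared between mouse intestinal stromal cells grown for 7 days with enteroids that carry a gain-of-function form of β-catenin (BcatGOF, 2 libraries) and the same kind of cells grown with wild-type enteroids (3 libraries). These are 5 of the 8 libraries of the series, and they were chosen by their labels. The table lists 24930 genes, of which 12516 reached at least 1 FPKM in at least 2 of the 5 libraries and were tested. Both groups held 50000 stromal cells with low Pdgfra per droplet of Matrigel, a basement membrane extract, plus enteroids grown from duodenum. Medium without EGF, R-spondin1 and Noggin was changed daily in both. The allele is in the enteroids, so Ctnnb1, the gene of β-catenin, is no check of the labels in stromal RNA: it was at 258, 391 and 258 FPKM in wild-type 1 to 3 and at 279.8 and 297 FPKM in BcatGOF 1 and 2. After coculture, GFP-positive live cells were sorted and poly-A RNA was sequenced. The labels do not give the driver of GFP, the sex, age or strain of the mice, or how many animals or enteroid lines stood behind the libraries. The p-values therefore measure only the spread between these libraries, and how much of it is technical is unknown. The design text also names the TGF-β receptor inhibitor SB525334, which no sample label carries.

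β-catenin is held low by a destruction complex and, when WNT ligands bind or the protein is stabilised by mutation, enters the nucleus and activates genes with TCF factors. Stabilised β-catenin in the intestinal epithelium drives crypt-like growth that no longer needs outside WNT. Pdgfra-low stromal cells lie around the crypts and supply R-spondins, WNT ligands and BMP antagonists, so the comparison asks what stromal cells express beside epithelium with and without this activation.

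The sorted cells carried the markers of intestinal fibroblasts in all 5 libraries. All 10 stromal markers were above 1 FPKM in each, with Pdgfra at 86.9, 86.5 and 108 FPKM in wild-type 1 to 3 and 99.8 and 52.4 FPKM in BcatGOF 1 and 2. All 8 endothelial markers were below 1 FPKM in all 5 libraries, and of 12 immune markers 8 were below 1 FPKM and Cd3e was at 0. The other 4 immune markers were above 1 FPKM in every library, led by Lyz2, lysozyme of myeloid cells, at 14, 82.2 and 34.5 FPKM in wild-type 1 to 3 and 30.8 and 57.3 FPKM in BcatGOF 1 and 2. All 12 immune markers summed to 26.7, 115 and 51.1 FPKM in wild-type 1 to 3 and 54.2 and 138 FPKM in BcatGOF 1 and 2. These sums were highest in the number-2 libraries. Epithelial transcripts were present in unequal amounts. The 29 epithelial markers listed, of which 17 were tested, summed to 25, 13.7 and 187 FPKM in wild-type 1 to 3. The sums were 47.7 and 172 FPKM in BcatGOF 1 and 2, against 7.59 to 10.9 FPKM in stromal cells grown without enteroids. Wild-type 3 and BcatGOF 2 thus held most of the epithelial transcripts, so results are also given without those libraries. Krt8, a keratin of simple epithelia, was at 3.86, 0.813 and 35.4 FPKM in wild-type 1 to 3 and 7.27 and 38.5 FPKM in BcatGOF 1 and 2. Epcam, an adhesion molecule of epithelia, was at 0.299, 0.156 and 5.78 FPKM in wild-type 1 to 3 and 1.75 and 5.63 FPKM in BcatGOF 1 and 2. The groups overlapped for all 17 markers tested. Of the 17, 15 were higher in BcatGOF in both differences between libraries of the same replicate number (22.1% of all genes were). Their part in any result was not tested.

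**Figure D1:**
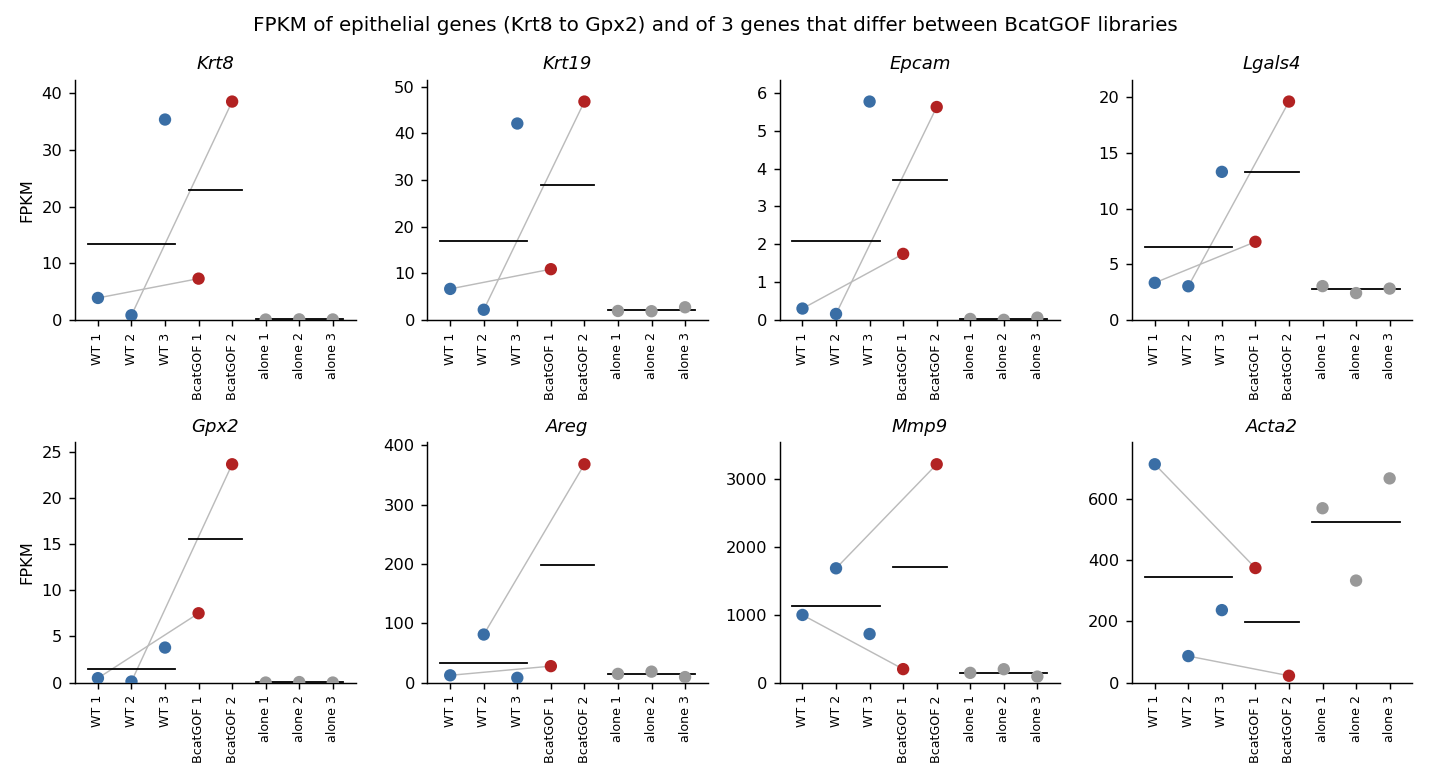
Each panel plots FPKM (linear axis from 0) of 1 gene by library: wild-type coculture (WT, blue), BcatGOF coculture (red) and stromal cells grown alone (grey), with the group mean as a bar and thin lines joining libraries of the same number. Krt8, Krt19, Epcam and Lgals4 were high in WT 3 and BcatGOF 2, Gpx2 was above all wild-type libraries in both BcatGOF libraries, and Areg, Mmp9 and Acta2 differed between BcatGOF 1 and BcatGOF 2.

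BcatGOF 2 stood apart from the other libraries. The first principal component held 48.8% of the variance of the tested genes and placed wild-type 1 to 3 at -22.6, 15.2 and -13.5 and BcatGOF 1 and 2 at -32.5 and 53.5. Across genes, the SD of the log2(FPKM + 1) difference was 0.384 between BcatGOF 1 and wild-type 1, 0.597 between BcatGOF 2 and wild-type 2, 0.797 between BcatGOF 1 and BcatGOF 2, and 0.555 to 0.569 between wild-type libraries. The BcatGOF libraries therefore differed from each other more than any wild-type pair did. Xist is the RNA of the inactive X chromosome. It was at 0.0394, 27.2 and 0.0311 FPKM in wild-type 1 to 3 and 0.174 and 28.1 FPKM in BcatGOF 1 and 2. Xist was thus abundant in the number-2 libraries alone, whichever enteroids were used. Ddx3y, a gene of the Y chromosome, showed the reverse. Its values were 16.7, 0.109 and 15.8 FPKM in wild-type 1 to 3 and 20.8 and 0.011 FPKM in BcatGOF 1 and 2. By these genes the number-2 cells were female and the others male, so they came from different animals. The part of sex in any difference was not tested. Relative depth, read from the whole-fragment steps of low values, was 0.974, 0.933 and 0.829 in wild-type 1 to 3 and 0.926 in BcatGOF 2 with BcatGOF 1 at 1.0, and the absolute number of reads is unknown.

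No gene was called between the cocultures. Of 12516 genes, 0 passed an adjusted p of 0.05 (0.0%) in limma on log2(FPKM + 1), and the lowest adjusted p was 0.461. An unadjusted p under 0.05 was reached by 313 genes (2.5%), of which 104 were higher (0.831%) and 209 lower (1.67%) in BcatGOF. None was called in any of 17 other settings, where the lowest adjusted p ran from 0.112 to 1.0. All statements below therefore give values, and none of the named differences passed the correction. The 2 BcatGOF libraries lay above all 3 wild-type libraries for 794 genes (6.34%) and below all 3 for 969 genes (7.74%). Between libraries of the same number, 2770 genes were higher in BcatGOF both times (22.1%) and 3108 lower both times (24.8%). A difference past 1 on the log2 scale, in the same direction both times, was found for 31 genes higher (0.248%) and 31 genes lower (0.248%). Of these, 17 and 8 were genes of small RNAs. BcatGOF 1 differed from wild-type 1 by more than 1 for 187 genes higher (1.49%) and 118 lower (0.943%), and BcatGOF 2 from wild-type 2 for 449 higher (3.59%) and 574 lower (4.59%). By group means, 51.4% of genes were higher and 48.6% lower in BcatGOF. The median difference over all genes tested was 0.0077, with -0.017 between the number-1 libraries and 0.0011 between the number-2 libraries. On the log2(FPKM + 1) scale used throughout, differences of low genes are understated.

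Most genes of amino acid synthesis, and some of amino acid stress and tRNA charging, lay below the wild-type range in both BcatGOF libraries. Of the 11 genes of serine, one-carbon, proline and asparagine synthesis tested, 9 were below all wild-type libraries in both BcatGOF libraries (7.74% of all genes were), and the list's median difference was -0.94. It was -0.91 between the number-1 libraries and -0.80 between the number-2 libraries. All gene lists here were drawn up with earlier results of these data known. Their counts beside the shares of all genes are therefore a description and no test. Mthfd2, the mitochondrial folate enzyme that oxidises methylene-tetrahydrofolate, was at 44.4, 41.6 and 42.6 FPKM in wild-type 1 to 3 and 18.5 and 19.5 FPKM in BcatGOF 1 and 2. The wild-type values were close together and above both BcatGOF values, a difference of -1.13 (SE 0.15). It ranked 4 of 12516 genes by p (limma, unadjusted p = 0.000312, adjusted p = 0.976). In stromal cells grown alone Mthfd2 was at 19.5, 29.2 and 26.6 FPKM.

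The 3 enzymes of serine synthesis gave the following values. Phgdh, the entry step, was at 54.9, 44 and 41.2 FPKM in wild-type 1 to 3 and 30.2 and 9.71 FPKM in BcatGOF 1 and 2. Psat1, the transaminase that follows, was at 62.7, 35.3 and 51.2 FPKM in wild-type 1 to 3 and 28.9 and 11.9 FPKM in BcatGOF 1 and 2. Psph, the last phosphatase, was at 20.5, 15.5 and 16.7 FPKM in wild-type 1 to 3 and 12.1 and 12.9 FPKM in BcatGOF 1 and 2. All 3 were lower in both BcatGOF libraries than in any wild-type library, with Phgdh and Psat1 lowest in BcatGOF 2. Shmt2, which turns serine into glycine and a one-carbon unit in mitochondria, was at 74.3, 59 and 73 FPKM in wild-type 1 to 3 and 38.1 and 37.1 FPKM in BcatGOF 1 and 2. Asns, asparagine synthetase, was at 92.8, 81.7 and 87.7 FPKM in wild-type 1 to 3 and 43.5 and 53.3 FPKM in BcatGOF 1 and 2. The groups did not overlap for either gene, and the differences were -0.85 (SE 0.18) and -0.84 (SE 0.18). Of the proline enzymes, Aldh18a1 was at 40.8, 32.4 and 43.2 FPKM in wild-type 1 to 3 and 24 and 16.1 FPKM in BcatGOF 1 and 2. Pycr1 was at 14.9, 16.2 and 26.5 FPKM in wild-type 1 to 3 and 7.47 and 8.86 FPKM in BcatGOF 1 and 2. Both lay below the wild-type range in both BcatGOF libraries, as did Aldh1l2, a mitochondrial folate enzyme, at 8.51 and 4.74 against 17.2, 11.4 and 16.9 FPKM. The 2 members that overlapped were Shmt1, the cytosolic counterpart of Shmt2, with a difference of -0.15 (SE 0.40), and Mthfd1l, a mitochondrial formate enzyme, with 0.20 (SE 0.30).

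**Figure D2:**
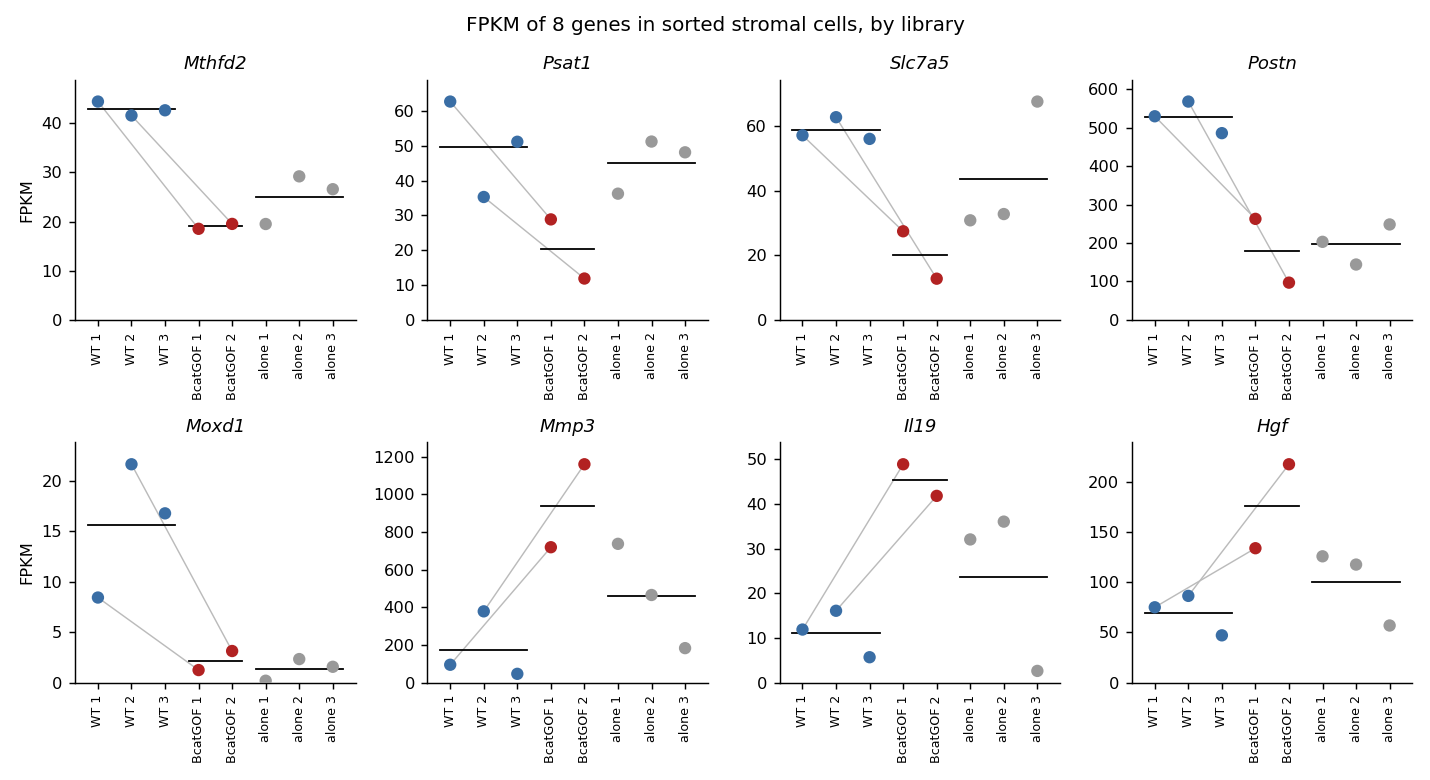
Each panel plots FPKM (linear axis from 0) of 1 gene by library, in wild-type coculture (WT, blue), BcatGOF coculture (red) and stromal cells grown alone (grey, not used in the comparison), with bars at group means and thin lines joining libraries of the same number. Mthfd2, Psat1, Slc7a5, Postn and Moxd1 were below all wild-type libraries in both BcatGOF libraries, and Mmp3, Il19 and Hgf were above them.

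Among 18 tested genes of the ATF4 and amino acid stress list, 7 were below all wild-type libraries and 1 above. Of all genes, 7.74% were below and 6.34% above. The list's median was -0.36 (-0.51 and -0.30 within numbers 1 and 2). ATF4 is a transcription factor whose protein is made when amino acids run short or the unfolded protein response is on. Atf4 itself overlapped between the groups, at 274, 345 and 266 FPKM in wild-type 1 to 3 and 198 and 294 FPKM in BcatGOF 1 and 2. Atf5, a related factor of the same family, was at 260.3, 294 and 355 FPKM in wild-type 1 to 3 and 154 and 114 FPKM in BcatGOF 1 and 2. Slc7a5, the light chain of a transporter that imports leucine and other large amino acids, was at 57.2, 62.8 and 56.1 FPKM in wild-type 1 to 3 and 27.5 and 12.8 FPKM in BcatGOF 1 and 2. Its 3 wild-type values were close together, and BcatGOF 2 was the lowest library. Slc3a2, the heavy chain of the same transporter, was at 96, 109.5 and 96.5 FPKM in wild-type 1 to 3 and 75.4 and 66.5 FPKM in BcatGOF 1 and 2. Chac1, which breaks down glutathione, was at 11.6, 9.85 and 11.2 FPKM in wild-type 1 to 3 and 3.03 and 5.29 FPKM in BcatGOF 1 and 2. BcatGOF 1 was the lowest library for Chac1, as it was for Trib3, a pseudokinase, at 10 and 12.9 against 26.3, 16.8 and 35.5 FPKM. Sesn2, a leucine sensor, and Slc6a9, a glycine transporter, completed the 7, with differences of -0.44 (SE 0.16) and -0.65 (SE 0.25). The exception was Slc7a11, the cystine importer, at 1.13, 0.972 and 0.378 FPKM in wild-type 1 to 3 and 1.92 and 2.31 FPKM in BcatGOF 1 and 2. Ddit3 and Cebpg, also of this list, had differences of 0.013 (SE 0.25) and 0.079 (SE 0.16).

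The aminoacyl-tRNA synthetases, which load amino acids onto tRNAs, showed smaller differences in the same direction. Of 19 tested, 8 were below all wild-type libraries (7.74% of all genes were). In both same-number differences 13 were lower (24.8% of all genes were), and the list's median was -0.28. Gars, for glycine, was at 95.4, 78.2 and 76.9 FPKM in wild-type 1 to 3 and 57.4 and 50.9 FPKM in BcatGOF 1 and 2. Aars, for alanine, was at 94.5, 75.9 and 86.7 FPKM in wild-type 1 to 3 and 64.1 and 49.6 FPKM in BcatGOF 1 and 2. Both were lower in the 2 BcatGOF libraries than in every wild-type library, with differences of -0.61 (SE 0.19) and -0.59 (SE 0.21). Nars, for asparagine and the most abundant, was also below the wild-type range, with -0.28 (SE 0.21). Hars, Qars, Dars and Farsa had differences between 0.051 and 0.12, and the groups overlapped.

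Outside these lists, and chosen after their values were seen, Pck2, the mitochondrial enzyme that makes phosphoenolpyruvate, was at 41.4, 47.1 and 45.1 FPKM in wild-type 1 to 3 and 21.4 and 24.2 FPKM in BcatGOF 1 and 2. Gpt2, the mitochondrial alanine transaminase, was at 8.13, 8.92 and 9.35 FPKM in wild-type 1 to 3 and 4.42 and 3.73 FPKM in BcatGOF 1 and 2. Neither overlapped between groups, and Pck2 and Gpt2 ranked 6 and 10 by p, with differences of -0.94 (SE 0.16) and -0.95 (SE 0.17). Leaving out any single library kept the medians of these 3 lists negative: -0.73 to -1.06 for synthesis, -0.29 to -0.43 for the ATF4 list and -0.16 to -0.35 for the synthetases. Without both wild-type 3 and BcatGOF 2, the libraries richest in epithelial markers, the medians were -0.69, -0.50 and -0.21.

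**Figure D3:**
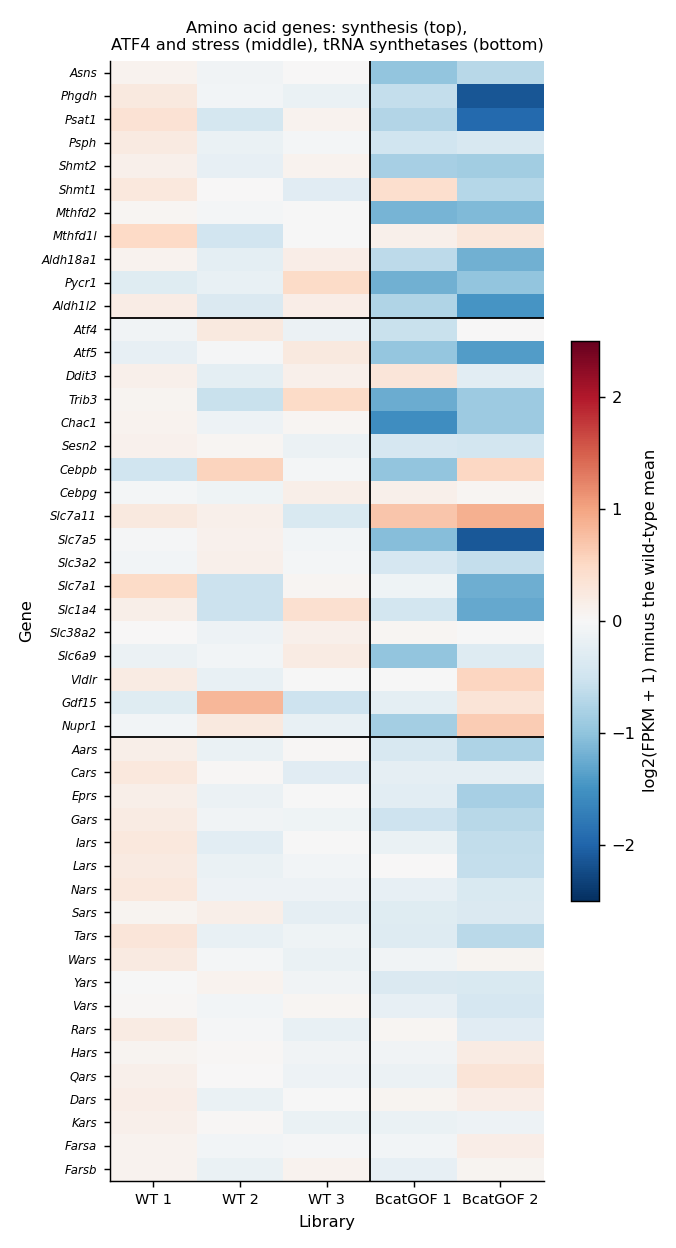
Colour shows log2(FPKM + 1) minus the mean of the 3 wild-type libraries for each tested gene (rows) in each library (columns), blue lower and red higher, with horizontal lines between synthesis genes, ATF4 and stress genes, and tRNA synthetases. Most synthesis genes are blue in both BcatGOF columns (list medians -0.91 and -0.80 within numbers 1 and 2), while the wild-type columns are mostly pale.

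Promoters of Asns, Chac1 and Pck2 are printed because these genes had some of the smallest p-values and carry the letters TGATGNAA. These letters belong to the amino acid response element, which ATF4 binds. Mthfd2, with a smaller p than any of these genes, and Psat1 had windows without these letters. This string was chosen after the expression values were seen. The windows run from 250 bases before to 50 after the annotated start and come from RefSeq on GRCm38.p6, which is not the build the submitters name. Asns lies at chr6:7693160-7693459 on the minus strand, Chac1 at chr2:119350992-119351291 on the plus strand and Pck2 at chr14:55540016-55540315 on the plus strand. Capitals mark the match, which lies on the opposite strand, and so reads as the reverse complement, in Chac1 and Pck2, and each sequence is in the direction of transcription.
Asns: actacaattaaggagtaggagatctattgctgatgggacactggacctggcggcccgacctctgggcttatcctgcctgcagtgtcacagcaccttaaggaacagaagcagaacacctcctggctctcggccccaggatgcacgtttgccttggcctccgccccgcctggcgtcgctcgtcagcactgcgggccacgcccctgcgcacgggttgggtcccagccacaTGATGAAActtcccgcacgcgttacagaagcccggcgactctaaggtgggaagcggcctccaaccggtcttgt
Chac1: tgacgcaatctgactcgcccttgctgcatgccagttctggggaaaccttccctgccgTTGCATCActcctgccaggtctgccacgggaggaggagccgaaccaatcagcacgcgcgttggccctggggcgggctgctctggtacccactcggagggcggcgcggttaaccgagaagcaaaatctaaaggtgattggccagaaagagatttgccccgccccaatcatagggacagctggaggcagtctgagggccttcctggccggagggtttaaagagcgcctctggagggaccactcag
Pck2: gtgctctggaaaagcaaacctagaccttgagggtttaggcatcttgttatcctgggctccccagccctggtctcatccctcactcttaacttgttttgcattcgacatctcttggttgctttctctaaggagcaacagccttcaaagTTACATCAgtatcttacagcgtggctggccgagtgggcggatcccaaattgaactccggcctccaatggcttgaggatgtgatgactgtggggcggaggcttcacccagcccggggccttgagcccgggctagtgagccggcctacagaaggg
The match starts 23 bases before the annotated start in Asns, 193 in Chac1 and 103 in Pck2. On either strand, TGATGNAA was in 3.97% of 32851 promoter windows. It was in 8 of 19 genes of the ATF4 list with a window, 5 of 13 synthetases, 2 of 10 synthesis genes and 0 of 16 collagens. ACGTG, the core that hypoxia-inducible factors read, was in 19.6% of windows and in 5 of the 10 synthesis genes. A gene was counted when any of its windows matched, so gene counts and shares of windows are in unlike units. The ATF4 list was drawn up around this factor, so its count is a description and no test. A match describes letters and shows no binding, and neither string contains the other.

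Collagen values were mostly lower beside BcatGOF enteroids, with the larger differences in BcatGOF 2. Of 20 collagen chains, 7 were below all wild-type libraries (7.74% of all genes were). In both same-number differences 13 were lower (24.8% of all genes were). The median was -0.90 (-0.33 and -1.05 within numbers 1 and 2). Without BcatGOF 2 it was -0.27. Col1a1, a chain of type I collagen, was at 3962, 3031 and 5725 FPKM in wild-type 1 to 3 and 2187 and 1103 FPKM in BcatGOF 1 and 2. The groups did not overlap, and BcatGOF 2 was the lowest of the 5 libraries. Col6a2, a chain of the pericellular type VI collagen, was at 343, 392 and 434 FPKM in wild-type 1 to 3 and 251 and 147 FPKM in BcatGOF 1 and 2. Col5a3 was at 59.9, 63.4 and 61 FPKM in wild-type 1 to 3 and 47.6 and 37.8 FPKM in BcatGOF 1 and 2. Both were below the wild-type range, and Col15a1, of basement membranes, was at 66.3, 315 and 137 FPKM in wild-type 1 to 3 and 56.1 and 39.4 FPKM in BcatGOF 1 and 2. Col18a1, whose fragment is endostatin, was not lower in BcatGOF 2, at 88.5, 106 and 135 FPKM in wild-type 1 to 3 and 88.2 and 196 FPKM in BcatGOF 1 and 2.

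Other matrix proteins gave a like picture. Of 18 small leucine-rich proteoglycans and elastic fibre genes, 6 were below all wild-type libraries and 1 above. Of all genes, 7.74% were below and 6.34% above. The list's median was -0.77 (-0.094 and -1.12). Bgn, biglycan, was at 3046, 2791 and 3243 FPKM in wild-type 1 to 3 and 2081 and 1633 FPKM in BcatGOF 1 and 2. Mfap5, a microfibril protein, was at 79.3, 42.9 and 143 FPKM in wild-type 1 to 3 and 34.8 and 3.32 FPKM in BcatGOF 1 and 2. Mfap5 was lowest in BcatGOF 2 and the wild-type libraries spread widely. Prelp, a leucine-rich repeat matrix protein, was the member above the wild-type range, at 59.9, 19.7 and 28.6 FPKM in wild-type 1 to 3 and 69.6 and 210.2 FPKM in BcatGOF 1 and 2. Dcn, decorin and the most abundant, was at 2962, 3181 and 3441 FPKM in wild-type 1 to 3 and 2716 and 5673 FPKM in BcatGOF 1 and 2, where the groups overlapped. Without wild-type 3 and BcatGOF 2 the medians were -0.12 for collagens and 0.074 for proteoglycans and elastic fibres. In bulk samples, fewer cells of a type and less RNA per cell cannot be told apart.

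TGF-β response genes had a median of -0.37, with 3 of 21 below all wild-type libraries, where 7.74% of all genes were, and 0 above. Leaving out any single library gave medians from -0.54 (without BcatGOF 1) to -0.10 (without BcatGOF 2). Without wild-type 3 and BcatGOF 2 the median was -0.15. Postn, periostin, was at 529.7, 568 and 486 FPKM in wild-type 1 to 3 and 263 and 96.8 FPKM in BcatGOF 1 and 2. Both BcatGOF values were below the narrow wild-type range, with a difference of -1.72 (SE 0.44). Lox, which cross-links collagen, was at 235, 228 and 304 FPKM in wild-type 1 to 3 and 117 and 194 FPKM in BcatGOF 1 and 2, and Col1a1 completed the 3. Tgfbi was at 218, 381 and 584 FPKM in wild-type 1 to 3 and 84.2 and 235 FPKM in BcatGOF 1 and 2, where BcatGOF 2 lay inside the wild-type range. Snai1 and Smad7, also TGF-β targets, had differences of 0.14 (SE 0.31) and 0.22 (SE 0.44). Of the ligands, Tgfb3 was at 31.3, 45.1 and 55 FPKM in wild-type 1 to 3 and 25 and 14.9 FPKM in BcatGOF 1 and 2, below the wild-type range in both BcatGOF libraries. Tgfb1 was at 123, 157 and 86.7 FPKM in wild-type 1 to 3 and 97.1 and 205 FPKM in BcatGOF 1 and 2, and Tgfb2 at 2.77, 5.06 and 5.85 FPKM in wild-type 1 to 3 and 8.57 and 1.83 FPKM in BcatGOF 1 and 2, and both overlapped. Inhba, the activin A subunit, was at 47.3, 28.2 and 43.2 FPKM in wild-type 1 to 3 and 34.3 and 50.1 FPKM in BcatGOF 1 and 2, where the groups overlapped as well.

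Moxd1, Gpbar1, Crispld2, Dpep1 and Nnat were among the genes ranked first on the lower side by the rule for named genes. Moxd1, a copper-dependent monooxygenase, was at 8.44, 21.7 and 16.8 FPKM in wild-type 1 to 3 and 1.24 and 3.13 FPKM in BcatGOF 1 and 2. Gpbar1, the membrane receptor for bile acids, was at 40, 36.9 and 54.6 FPKM in wild-type 1 to 3 and 7.44 and 16.1 FPKM in BcatGOF 1 and 2. Neither overlapped, and the differences were -2.36 (SE 0.46) and -1.88 (SE 0.35). In stromal cells grown alone Moxd1 was at 0.181, 2.33 and 1.56 FPKM and Gpbar1 at 2.38, 15 and 5.93 FPKM. Crispld2, a secreted protein, was at 22.3, 38.7 and 58.2 FPKM in wild-type 1 to 3 and 8.74 and 11.3 FPKM in BcatGOF 1 and 2. Dpep1, a membrane dipeptidase, was at 15.1, 23.8 and 44.5 FPKM in wild-type 1 to 3 and 6.32 and 6.49 FPKM in BcatGOF 1 and 2. For both, wild-type 3 was the highest library and the BcatGOF values were close together. Nnat, an imprinted membrane protein whose gene lies inside an intron of Blcap, was at 33.3, 17.9 and 137 FPKM in wild-type 1 to 3 and 11.7 and 3.47 FPKM in BcatGOF 1 and 2. Reads of such nested genes may be hard to assign. Plat, tissue plasminogen activator, was at 61, 75.3 and 85.9 FPKM in wild-type 1 to 3 and 36.4 and 26.3 FPKM in BcatGOF 1 and 2, and Fam20a, a secreted pseudokinase named after its values were seen, at 44.7, 57.3 and 68.8 FPKM in wild-type 1 to 3 and 23.8 and 20 FPKM in BcatGOF 1 and 2. Both lay below the wild-type range, with differences of -1.22 (SE 0.24) and -1.32 (SE 0.23).

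Most proliferation genes had lower values in both BcatGOF libraries than in the wild-type library of the same number, more so in BcatGOF 2. Of 31 cell cycle and DNA replication genes, 13 were below all wild-type libraries (7.74% of all genes were). In both same-number differences 29 were lower (24.8% of all genes were) and 0 higher. With trimmed-mean scaling 12 were below all wild-type libraries. The median was -0.57 (-0.36 and -0.89), and -0.17 without BcatGOF 2. Ube2c, which tags mitotic proteins for destruction, was at 22.9, 22.3 and 22.3 FPKM in wild-type 1 to 3 and 16.2 and 8.46 FPKM in BcatGOF 1 and 2. Birc5, survivin, was at 12.1, 10.8 and 11 FPKM in wild-type 1 to 3 and 8.35 and 3.5 FPKM in BcatGOF 1 and 2. The wild-type libraries were close together for both, BcatGOF 1 lay just below them and BcatGOF 2 far below. Aurkb, a mitotic kinase, was at 6.42, 5.00 and 5.54 FPKM in wild-type 1 to 3 and 3.55 and 1.78 FPKM in BcatGOF 1 and 2. Mki67, a general proliferation marker, was at 4.25, 3.77 and 3.31 FPKM in wild-type 1 to 3 and 3.91 and 0.478 FPKM in BcatGOF 1 and 2, where BcatGOF 1 lay within the wild-type range. Pcna, the most abundant of the list, had a difference of -0.15 (SE 0.17), and Cdt1, which licenses replication origins, had 0.09 (SE 0.24).

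Mmp3, Mmp12, Il19 and Tlr4 were among the 12 genes ranked first on the higher side by the rule for named genes. Mmp3, stromelysin-1, was at 94.4, 378 and 46.2 FPKM in wild-type 1 to 3 and 719 and 1159 FPKM in BcatGOF 1 and 2. Both BcatGOF values were above all wild-type values, which themselves spread widely, and the difference was 2.93 (SE 0.88). Mmp12, an elastase, was at 2.86, 2.35 and 0.875 FPKM in wild-type 1 to 3 and 9.78 and 10.2 FPKM in BcatGOF 1 and 2. Il19, a cytokine of the interleukin-10 family, was at 11.9, 16.1 and 5.67 FPKM in wild-type 1 to 3 and 48.9 and 41.8 FPKM in BcatGOF 1 and 2. Tlr4, the receptor of bacterial lipopolysaccharide, was at 6.82, 5.87 and 4.45 FPKM in wild-type 1 to 3 and 15.6 and 12.1 FPKM in BcatGOF 1 and 2. For these 3 genes the BcatGOF values were close together and above the wild-type range, with differences of 1.93 (SE 0.35), 2.02 (SE 0.41) and 1.15 (SE 0.23). Stromal cells grown alone had Mmp3 at 737, 465 and 183, Il19 at 32, 36 and 2.6 and Tlr4 at 15.9, 9.36 and 6.37 FPKM, which overlap the BcatGOF values for Tlr4 and Mmp3. Of 23 listed matrix proteases and inhibitors tested, which leave out Mmp12, Mmp3 was the only member above and Plat the only member below all wild-type libraries. Of all genes, 6.34% were above and 7.74% below, so the list as a whole did not exceed these shares. Its median was -0.084.

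The promoter of Mmp3 is shown because it holds TGANTCA, the site read by AP-1 factors, as does that of Mmp12. It comes from RefSeq (GRCm38.p6, chr9:7445572-7445871, plus strand), with the match in capitals.
Mmp3: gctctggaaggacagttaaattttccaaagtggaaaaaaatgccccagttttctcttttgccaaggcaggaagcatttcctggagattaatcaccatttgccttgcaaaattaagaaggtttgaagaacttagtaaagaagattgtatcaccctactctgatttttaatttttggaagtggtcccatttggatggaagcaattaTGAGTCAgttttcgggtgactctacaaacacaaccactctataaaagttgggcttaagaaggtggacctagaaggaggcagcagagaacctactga
The match starts 46 bases before the annotated start. TGANTCA was in 7.81% of all windows. Of the 14 genes ranked first in either direction that had a window, only Mmp3 and Mmp12 held it, counting any window of a gene. Of the AP-1 genes, Fos was at 78.6, 177 and 136 FPKM in wild-type 1 to 3 and 72.8 and 105 FPKM in BcatGOF 1 and 2, where the groups overlapped. Fosl1 was at 34.2, 24.4 and 31.7 FPKM in wild-type 1 to 3 and 28.6 and 95.8 FPKM in BcatGOF 1 and 2, high in BcatGOF 2 alone. Fosl2 was at 42.6, 43.3 and 37.9 FPKM in wild-type 1 to 3 and 63.3 and 46.5 FPKM in BcatGOF 1 and 2, above the wild-type range in both.

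Of 17 tested genes of PDGF, FGF, HGF and VEGF growth factors, 3 lay above all wild-type libraries (6.34% of all genes did) and 1 below. Hgf, the ligand of the Met receptor on epithelium, was at 74.9, 86.2 and 47 FPKM in wild-type 1 to 3 and 134 and 217 FPKM in BcatGOF 1 and 2. Fgf10, a ligand of the epithelial FGF receptor, was at 53.5, 45.9 and 33.3 FPKM in wild-type 1 to 3 and 68.8 and 91.6 FPKM in BcatGOF 1 and 2. Vegfc, which acts on lymphatic endothelium, was at 32.6, 20.2 and 20.2 FPKM in wild-type 1 to 3 and 48 and 37.7 FPKM in BcatGOF 1 and 2. In each of these genes both BcatGOF libraries exceeded the highest wild-type library, with differences of 1.33 (SE 0.35), 0.86 (SE 0.26) and 0.82 (SE 0.27). Mdk, midkine, was the member below, at 136, 267 and 207 FPKM in wild-type 1 to 3 and 101 and 37.9 FPKM in BcatGOF 1 and 2. Fgf7 and Vegfa were at 100.1 and 296 and at 254 and 659.5 FPKM in BcatGOF 1 and 2, against 106, 108 and 62 and 270.1, 285 and 316 FPKM in wild-type 1 to 3, and were high in BcatGOF 2 alone. The list's median was 0.054.

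Of 12 metallothionein and NRF2 antioxidant genes, 4 were above all wild-type libraries, where 6.34% of all genes were, and 0 below, with a median of 0.34 (0.25 and 0.22). Gclc, the catalytic subunit that starts glutathione synthesis, was at 17.4, 20.7 and 10.5 FPKM in wild-type 1 to 3 and 34.4 and 30.4 FPKM in BcatGOF 1 and 2. Hmox1, heme oxygenase, was at 134, 169 and 75.7 FPKM in wild-type 1 to 3 and 226 and 192 FPKM in BcatGOF 1 and 2. Gclc was above the wild-type range by a clear margin and Hmox1 by a small one, with differences of 1.01 (SE 0.30) and 0.80 (SE 0.37). Gpx2, a glutathione peroxidase of gut epithelium, was at 0.476, 0.111 and 3.8 FPKM in wild-type 1 to 3 and 7.52 and 23.7 FPKM in BcatGOF 1 and 2. It was above all wild-type values in both BcatGOF libraries, unlike the keratins, and did not exceed 0.0521 FPKM without enteroids. Kcnj8, a subunit of an ATP-gated potassium channel, was at 2.39, 6.92 and 5.85 FPKM in wild-type 1 to 3 and 11.4 and 38.5 FPKM in BcatGOF 1 and 2, and Arrdc3, an arrestin-like adaptor, at 23.8, 36.6 and 23.8 FPKM in wild-type 1 to 3 and 46 and 111 FPKM in BcatGOF 1 and 2. Both were highest in BcatGOF 2.

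EGF family ligands were higher in BcatGOF 2 and little or less so in BcatGOF 1. The median of 6 tested ligands was 1.55, with 0.54 within number 1 and 2.20 within number 2. Of the 6, 5 were higher both times (22.1% of all genes were). Areg, amphiregulin, was at 12.2, 80.9 and 7.92 FPKM in wild-type 1 to 3 and 27.6 and 368 FPKM in BcatGOF 1 and 2. Ereg, epiregulin, was at 145, 441 and 128 FPKM in wild-type 1 to 3 and 313 and 2058 FPKM in BcatGOF 1 and 2. In both genes BcatGOF 2 was highest and wild-type 2 second, so BcatGOF 1 lay within the wild-type range. Btc, betacellulin, was at 11.6, 16.6 and 10.1 FPKM in wild-type 1 to 3 and 11.8 and 88.2 FPKM in BcatGOF 1 and 2. Nrg1, a ligand of the ErbB3 and ErbB4 receptors, was at 36.8, 44.7 and 24.4 FPKM in wild-type 1 to 3 and 48.5 and 116 FPKM in BcatGOF 1 and 2, the 1 ligand above the wild-type range in both. Without BcatGOF 2 the median was 0.36, and without wild-type 3 as well it was -0.0052.

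Other groups differed in opposite directions between the same-number differences. Hypoxia targets outside glycolysis had medians of -0.28 within number 1 and 1.12 within number 2 over 16 genes. For 22 genes of glucose uptake and glycolysis the medians were -0.31 and 1.07, and for 11 ID genes and BMP SMAD targets -0.14 and 1.04. Ldha, lactate dehydrogenase, was at 915, 1021 and 861 FPKM in wild-type 1 to 3 and 658 and 2535 FPKM in BcatGOF 1 and 2. Bnip3, a hypoxia-induced mitochondrial protein, was at 153, 83 and 133 FPKM in wild-type 1 to 3 and 106 and 306 FPKM in BcatGOF 1 and 2. Id1 was at 56.4, 112 and 37.3 FPKM in wild-type 1 to 3 and 50.2 and 243 FPKM in BcatGOF 1 and 2. In all 3 genes BcatGOF 2 was the highest, and BcatGOF 1 was below the wild-type range for Ldha and within it for Bnip3 and Id1. Il11, a cytokine of injured stroma, was at 114, 424 and 84.6 FPKM in wild-type 1 to 3 and 85.8 and 2587 FPKM in BcatGOF 1 and 2, and Mmp9, a gelatinase, at 998, 1687 and 717 FPKM in wild-type 1 to 3 and 198 and 3223 FPKM in BcatGOF 1 and 2. The 2 BcatGOF libraries were thus the extremes for Mmp9. With all libraries the hypoxia and glycolysis medians were 0.38 and 0.25, and without BcatGOF 2 they were -0.19 and -0.31, of the other sign.

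**Figure D4:**
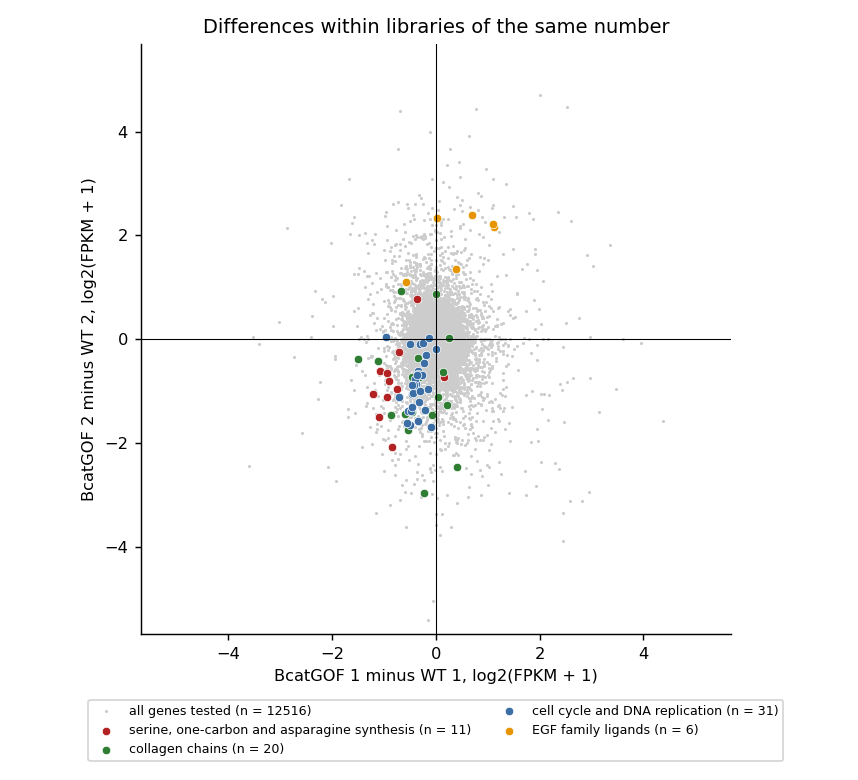
Each point is 1 of 12516 tested genes, with the BcatGOF 1 minus WT 1 difference on the x axis and the BcatGOF 2 minus WT 2 difference on the y axis, both in log2(FPKM + 1), and 4 gene lists are coloured. Serine and one-carbon genes lie mostly in the lower left, cell cycle genes lie mostly left of and below 0, most collagens lie below 0 on the y axis, and EGF family ligands lie above 0 on the y axis.

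The following genes were chosen for a large number-2 and a small number-1 difference, so that pattern is fixed by the choice and their values are a description. Tac2, a tachykinin precursor, was at 5.41, 858 and 255 FPKM in wild-type 1 to 3 and 4.74 and 19 FPKM in BcatGOF 1 and 2. Mamdc2, a matrix protein, was at 16.5, 103 and 24.3 FPKM in wild-type 1 to 3 and 15.9 and 2.14 FPKM in BcatGOF 1 and 2. Thbs4, a thrombospondin, was at 46.4, 251 and 488 FPKM in wild-type 1 to 3 and 49.3 and 17.4 FPKM in BcatGOF 1 and 2. Wild-type 2 or 3 was the high library in each, and for Tac2 both BcatGOF libraries and wild-type 1 lay far below them. Wnt4, a WNT ligand, was at 6.28, 29.8 and 30.3 FPKM in wild-type 1 to 3 and 6.29 and 1.56 FPKM in BcatGOF 1 and 2, with same-number differences of 0.0011 and -3.59. Sparcl1 and Ldb2 had same-number differences of 0.29 and -3.62 and of 0.12 and -3.38. On the higher side, Lypd8 and Prap1, both of colon or gut epithelium, were at 1.4 and 14 and at 1.52 and 9.41 FPKM in the BcatGOF libraries, against 0.975, 0.18 and 15.8 and 1.66, 0.218 and 20.4 FPKM. They were high in wild-type 3 and BcatGOF 2, as the keratins were, and Krt18, Mir10a and Snord8 were also chosen this way.

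Most contractile genes were lower in both same-number differences, and the groups overlapped. Of 15 tested, 15 were lower in BcatGOF within number 1 and 13 were lower both times (24.8% of all genes were). Both BcatGOF libraries lay below the wild-type range for 0 (1 with trimmed-mean scaling), against 7.74% of all genes. The median was -0.86 (-0.74 and -0.86). Acta2, the actin of smooth muscle, stood at 714, 86.5 and 237 FPKM in wild-type 1 to 3 and 375 and 22.2 FPKM in BcatGOF 1 and 2. Myl9, a myosin light chain, was at 452, 71.1 and 232 FPKM in wild-type 1 to 3 and 203 and 34.5 FPKM in BcatGOF 1 and 2. Both were highest in wild-type 1 and lowest in BcatGOF 2, and BcatGOF 1 lay within the wild-type range. Without BcatGOF 2 the median was 0.13, of the other sign. Smooth muscle markers, all 5 of which are also on the contractile list, moved with these genes: 5 of 5 were lower both times, with a median of -1.04 (0.18 without BcatGOF 2). They summed to 561, 76.6 and 251 FPKM in wild-type 1 to 3 and 284 and 33.6 FPKM in BcatGOF 1 and 2, mostly from Actg2, the enteric smooth muscle actin. Of 5 pericyte markers 4 were lower both times, with a median of -0.52 and sums of 173, 204 and 172 against 158 and 98.6 FPKM. The part of these cell types in the result was not tested.

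The crypt-supporting signals overlapped between the groups. Rspo3, an enhancer of WNT receptors, was at 16.6, 36.9 and 38.2 FPKM in wild-type 1 to 3 and 33 and 21.9 FPKM in BcatGOF 1 and 2. Grem1, a BMP antagonist, was at 982, 708 and 683 FPKM in wild-type 1 to 3 and 1376 and 608 FPKM in BcatGOF 1 and 2. Bmp4 was at 23.2, 12.6 and 21.5 FPKM in wild-type 1 to 3 and 16.2 and 12.9 FPKM in BcatGOF 1 and 2. In each the groups overlapped and the same-number differences were 0.95 and -0.73 for Rspo3, 0.49 and -0.22 for Grem1 and -0.50 and 0.027 for Bmp4. Wnt2b was below the filter, at 0.771, 0.201 and 0.908 FPKM in wild-type 1 to 3 and 2.49 and 0.231 FPKM in BcatGOF 1 and 2. Wnt5a, a non-canonical ligand, was at 42.7, 35.7 and 52.3 FPKM in wild-type 1 to 3 and 23.9 and 68.2 FPKM in BcatGOF 1 and 2, with BcatGOF 1 lowest and BcatGOF 2 highest. Of 7 tested WNT ligands and R-spondins, 7 had a lower log2 group mean in BcatGOF, with a median of -0.60, which stayed between -0.33 and -1.02 under the other settings. The groups separated for 0 of 7, and 3 were lower within number 1 and 5 within number 2, with only 1 lower both times. Dkk2 and Dkk3, of the Dickkopf family of WNT antagonists, were lower in both BcatGOF libraries, with Dkk2 at 22.1, 10.3 and 13.2 FPKM in wild-type 1 to 3 and 10.1 and 3.62 FPKM in BcatGOF 1 and 2 and Dkk3 at 181, 229 and 220.1 FPKM in wild-type 1 to 3 and 141 and 125 FPKM in BcatGOF 1 and 2. Of 11 WNT target genes 2 were below the wild-type range, Dkk2 and Nkd2 (7.74% of all genes were), and the median was -0.43. Axin2, a general WNT target, was at 1.78, 2.54 and 1.93 FPKM in wild-type 1 to 3 and 1.91 and 0.526 FPKM in BcatGOF 1 and 2, where only BcatGOF 2 lay below the wild-type range. Without BcatGOF 2 the WNT target median was 0.15.

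Genes of small RNAs made up part of the extremes. Snord68, a small nucleolar RNA, was listed at 0 in both BcatGOF libraries and at 11.2, 4.47 and 6.71 FPKM in wild-type 1 to 3. Mir6377 and Mir1964, named after their values were seen, had the 2 smallest p-values: they were listed at 0 in all wild-type libraries and at 4.09 and 4.44 and at 5.08 and 3.85 FPKM in BcatGOF. Mir133a-2 and Mirlet7f-1 were above the wild-type range, at 9.24 and 19.3 and at 6.74 and 4.44 FPKM, as were Mir6386, Snora3 and Mir7013, while Mir7666 was below it. These entries are short, so a few fragments give a high FPKM, poly-A selection does not select for the mature RNAs, and reads of a host gene may be counted there.

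**Figure D5:**
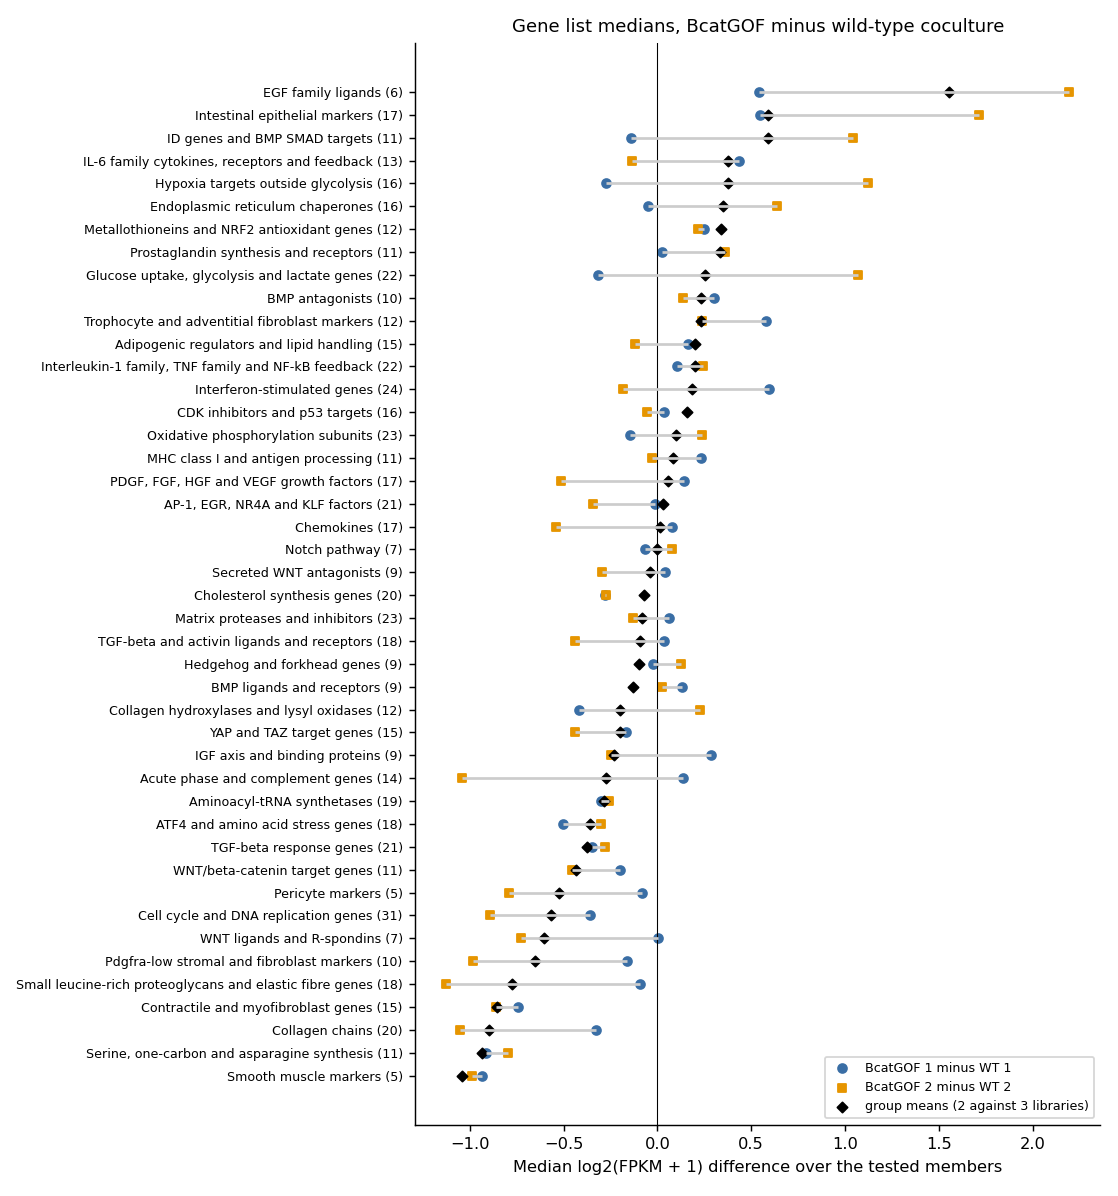
Each row is a gene list with its number of tested genes in parentheses, and the x axis is the median log2(FPKM + 1) difference: BcatGOF 1 minus WT 1 (blue circle), BcatGOF 2 minus WT 2 (orange square) and the difference of group means (black diamond), joined by a grey line. The 3 markers lie close together for amino acid synthesis, ATF4 genes and tRNA synthetases, whereas hypoxia, glycolysis and ID genes have their circle below 0 and their square near 1.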

How the data were processed

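Poly-A RNA of sorted stromal cells was measured in 5 coculture libraries, 3 with wild-type and 2 with BcatGOF enteroids. The 3 libraries of stromal cells alone stayed out of the contrast and are given as reference values. They also entered the correlations between same-number libraries and the setting in which all 8 libraries share the spread. The authors deposited the values as FPKM per gene, fragments scaled by transcript length and library total. Per the submitters' processing notes, the tools were kallisto 0.46.1 and DESeq2 1.40.1 and the build was mm9; neither their roles nor the FPKM computation are given in the sources used here. FPKM holds no read number, so the absolute depth is unknown, no counting interval can be given, and only the spread between libraries sets the precision. The authors' table comparing BcatGOF coculture with stromal cells alone was not used.

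Values were taken as log2(FPKM + 1). Genes that reached 1 FPKM in 2 or more of the 5 libraries were fitted in limma 3.58.1 (R 4.3.3; trend and robust options, 3 residual degrees of freedom), with two-sided p-values and Benjamini-Hochberg adjustment over all 12516 genes. The fit was also run on simulated data, but their spread was set below the observed one. That run therefore does not show how the fit performs at the observed spread. Tables and figures used python 3.11.15, pandas 2.3.3, numpy 2.4.6 and matplotlib 3.10.9. Lists (40 pathway and 10 marker lists) are described by counts and medians. The members and lists were chosen with earlier results of these data known. Ero1a and Mars1, on 2 lists, were not matched in the table.

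Genes were named by a rule: up to 12 in each direction that were called, or, as none was called, those with a group mean of at least 5 FPKM, no overlap and both same-number differences in one direction, ranked by the smaller difference. Up to 6 in each direction had the largest number-2 difference with a number-1 difference under 0.5 and at least 5 FPKM in any library. In each list the 2 most abundant genes and the 3 with the largest difference could be named, plus 18 fixed genes. Other named genes were chosen after their values were seen.

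Within each replicate number the library names in the labels share a stem. Deviations from group means correlated at 0.305 to 0.588 between same-number libraries (7 pairs) and at -0.498 to 0.225 between others (14 pairs). These pairs include the libraries of stromal cells alone. Between wild-type and BcatGOF libraries of the same number the correlations were 0.388 (number 1) and 0.429 (number 2). Deviations cancel within a group, so positive values for same numbers push the others down, and the pairs are not independent. The numbers were taken to pair the libraries, and a fit with the number as a block was run. Of 17 other settings, 14 were planned and 3 were added after the data were seen.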

Additional observations from a re-analysis of the deposited data

How the results depend on the processing

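The number of genes past an adjusted p of 0.05 was 0 under all 17 other settings, and the replicate block, which pairs same-number libraries, also left it at 0. At an unadjusted p under 0.05 the count was 313 with all libraries, 163 without wild-type 3, 478 with the replicate block, 498 without the filter, 514 without BcatGOF 2 and 1518 without BcatGOF 1. Where an arm kept 1 library, it is assumed to vary like the other group. Genes past 1 in both same-number differences numbered 64 higher and 58 lower with a pseudocount of 0.1, and 92 and 139 with a threshold of 0.58. Of list medians, 20 took the other sign without BcatGOF 2, 24 without wild-type 3 and BcatGOF 2, and 7 with the replicate block.

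Of 137 named genes tested, 41 changed sign under some setting, none of them called. Each is given with its lowest and highest difference on leaving out 1 library, or wild-type 3 and BcatGOF 2 together. The range was -3.41 to 0.61 for Acta2, -2.56 to 0.55 for Actg2, -0.20 to 4.12 for Areg, -0.63 to 0.0069 for Atf4, -0.17 to 1.36 for Bnip3 and -0.21 to 2.72 for Btc. The values ran from -0.32 to 0.35 for Cd81, -0.13 to 0.25 for Cdt1, -0.29 to 0.85 for Col18a1, -0.18 to 0.16 for Ctnnb1, -0.23 to 0.83 for Dcn and -0.27 to 0.36 for Ddit3. It was -0.077 to 0.17 for Farsa, -0.10 to 1.71 for Fgf7, -0.056 to 1.65 for Fosl1, -0.36 to 0.82 for Grem1, -0.14 to 0.21 for Hars and -0.65 to 1.95 for Id1. They ran from -1.71 to 3.41 for Ifi27l2a, -1.35 to 4.01 for Il11, -0.17 to 0.37 for Inhba, -0.55 to 1.45 for Ldha, -0.50 to 2.14 for Lypd8 and -0.34 to 0.90 for Lyz2. The next ranges were -0.24 to 1.94 for Mir10a, -1.69 to 0.045 for Mki67, -2.70 to 1.60 for Mmp9, -0.039 to 0.45 for Mthfd1l, -2.47 to 0.18 for Myl9 and -0.82 to 0.20 for Pdgfra. Further ranges were -0.70 to 1.51 for Prap1, -0.10 to 2.75 for Ptgs2, -0.21 to 0.33 for Qars, -0.47 to 0.40 for Rspo3, -0.72 to 0.42 for Shmt1 and -0.55 to 0.98 for Smad7. The last ranges were -0.28 to 0.56 for Snai1, -0.51 to 0.78 for Tgfb1, -0.93 to 1.00 for Tgfb2, -0.19 to 1.18 for Vegfa and -0.83 to 0.65 for Wnt5a. With the replicate block, over all 5 libraries or the 2 pairs alone, the values of other sign were -0.0032 for Cd81, -0.10 for Cdt1, 0.11 for Rspo3, 0.12 for Tgfb2 and 0.049 for Wnt5a. The cause of these changes was not tested.

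The limits are the 2 BcatGOF libraries, which differ widely from each other, unequal epithelial marker levels, and unknown read depth. A gene that was not called is not shown to be equal between the groups.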

Other observations

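Cholesterol synthesis genes, which the transcription factor SREBP2 controls together, were slightly lower in BcatGOF within both replicate numbers. Of 20 tested, 18 were lower both times (24.8% of all genes were), with medians of -0.28 and -0.28. The difference of group means had a median of -0.074. Hmgcs1, an early enzyme of the pathway, was at 46.9, 52.8 and 30.5 FPKM in wild-type 1 to 3 and 41.5 and 34.3 FPKM in BcatGOF 1 and 2. Wild-type 3, which has no BcatGOF partner, was the lowest library, so the groups overlapped. Dhcr7, the last reductase, was below all wild-type libraries, at 11.2, 14.2 and 10.3 FPKM in wild-type 1 to 3 and 9.53 and 9.81 FPKM in BcatGOF 1 and 2.

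Interferon-stimulated genes had opposite signs within the 2 numbers. Of 24 tested, 23 were higher in BcatGOF 1 than in wild-type 1 and 19 were lower in BcatGOF 2 than in wild-type 2, with medians of 0.60 and -0.18. Ifi27l2a, an interferon-induced gene, was at 3.55, 2.15 and 3.01 FPKM in wild-type 1 to 3 and 39.2 and 0.183 FPKM in BcatGOF 1 and 2, and at 88.8, 56.5 and 159.8 FPKM in stromal cells grown alone. For Ifi27l2a, BcatGOF 1 was thus nearer to cells without enteroids than any other coculture library. Gbp2, a guanylate-binding protein, was above the wild-type range in both, at 7.88, 9.35 and 6.23 FPKM in wild-type 1 to 3 and 13.3 and 13 FPKM in BcatGOF 1 and 2.

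Plin1, which coats lipid droplets of fat cells, was at 0.138, 0.864 and 0.194 FPKM in wild-type 1 to 3 and 2.36 and 2.4 FPKM in BcatGOF 1 and 2. Both BcatGOF values were above all wild-type values, and cells grown alone had 7.65, 3.35 and 3.45 FPKM. Of 15 tested adipogenic and lipid handling genes, 1 was above and 1 below all wild-type libraries. Of all genes, 6.34% were above and 7.74% below. That list's median was 0.20 (0.16 and -0.12 within numbers 1 and 2). Among endoplasmic reticulum chaperones, Hspa5, the chaperone known as BiP, was at 443, 422 and 354 FPKM in wild-type 1 to 3 and 461 and 663 FPKM in BcatGOF 1 and 2, highest in BcatGOF 2. Of 16 chaperones tested, 3 were above all wild-type libraries (6.34% of all genes were) and 0 below (7.74% were). The chaperone median was 0.35 (-0.050 and 0.64 within numbers 1 and 2). Without BcatGOF 2 it was -0.063, of the other sign. Ptgs2, the inducible prostaglandin synthase, was at 159.8, 209 and 63.7 FPKM in wild-type 1 to 3 and 170 and 871 FPKM in BcatGOF 1 and 2, high in BcatGOF 2 alone.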
